A study of Mus musculus with 32 samples.

Results

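Caspases are cysteine proteases that cut their substrates after aspartate and carry out programmed cell death. Here 7 members of the family were followed by their RNA: the inflammatory caspases Casp1, Casp4 and Casp12, the initiator caspases Casp8, Casp9 and Casp2, and the effector caspase Casp6. They were taken by name, as probe sets that carry only that symbol, with the probe set of the highest mean over all 32 arrays kept per gene. All 7 had exactly 1 such probe set, and they are 7 of the 19938 genes that could be named this way.

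Inflammatory caspases are activated on receptor complexes called inflammasomes (Casp1) or by binding bacterial lipopolysaccharide in the cytosol (Casp4, known in mice also as caspase-11), and they cleave gasdermin D, which opens pores in the membrane. Casp8 is recruited to death receptors through the adaptor Fadd and, besides starting apoptosis, holds back necroptosis. Casp9 is activated on the Apaf1 apoptosome after cytochrome c leaves the mitochondria, and Casp2 on the PIDDosome. All are made as inactive precursors, so an RNA level says nothing about how much of the protease was active. In the brain, microglia and infiltrating macrophages are known sources of inflammatory caspases, and B lymphocytes carry Casp8.

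The study implanted cells of the murine B cell lymphoma line BAL17, or of the line BAL17VII, into the brains of wild-type BALB/c mice to induce lymphoma there. Whole-brain RNA and RNA of the cultured lines were hybridised to Affymetrix arrays, 1 array per sample. The 6 groups were cultured BAL17VII cells (6 arrays), cultured BAL17 cells (6 arrays), brains 21 days after 500000 BAL17VII cells (5 arrays), brains 28 days after 500000 BAL17 cells (5 arrays), brains 21 days after 500000 BAL17 cells (5 arrays), and brains of mice injected with PBS and taken at day 28 (5 arrays). No PBS brains of day 21 are among the samples, so a comparison of day 21 brains with PBS brains also spans the time. Each implanted group received a single cell line, and hosts and lines are of the same strain. The labels do not say whether replicates were separate cultures or animals, so the p-values below measure the spread between these arrays only. Where a single brain or culture is named below, 1 array is meant.

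Values are log2 of the deposited RMA intensities, and a difference of 1 is a doubling of the intensity. The median of the named probe sets lay between 6.54 and 6.77 log2 on every array, and serves below to place a gene on its array. Arrays of the same group correlated at 0.979 or more over the 19938 genes, and 0 pairs of arrays were identical. The 10 neuron markers were all above the array median in every brain array and 0 of 10 were above it on every array of either cultured line. Of 14 B lineage markers, 11 were above it in every array of either line. One array stands apart: in replicate 1 of the BAL17VII brains the mean of the B lineage markers was 5.92 and that of 11 markers of dividing cells was 5.59, both inside the range of PBS brains (5.84 to 6.07 and 5.43 to 5.62). The other 4 BAL17VII brains had B lineage means of 6.71 to 7.24. Tests on BAL17VII brains are therefore given with and without that array. Cells and brains also differ in the prefix of their array names, so tissue kind and array series cannot be told apart, and no test was made between a line and a brain.

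The promoters of the 3 caspases that were higher in implanted brains are printed here, because members that move together can be set against their start sites. Each is the stretch from 250 bases before to 50 bases after a transcription start in RefSeq (mouse build GRCm38.p6), and capitals mark matches to the kappaB consensus, the interferon regulatory factor core AANNGAAA or the gamma-activated site TTCNNNGAA on either strand. Casp4 lies at chr9:5308599-5308898 (plus strand, the first of its 2 listed starts), Casp1 at chr9:5298267-5298566 (plus strand) and Casp8 at chr1:58802252-58802551 (plus strand).
Casp4: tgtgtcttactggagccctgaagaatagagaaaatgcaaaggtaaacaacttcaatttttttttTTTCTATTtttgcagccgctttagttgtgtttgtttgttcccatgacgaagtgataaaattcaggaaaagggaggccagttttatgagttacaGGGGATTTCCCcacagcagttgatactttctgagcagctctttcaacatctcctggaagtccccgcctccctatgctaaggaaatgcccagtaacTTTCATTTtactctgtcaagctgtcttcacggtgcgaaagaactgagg
Casp1: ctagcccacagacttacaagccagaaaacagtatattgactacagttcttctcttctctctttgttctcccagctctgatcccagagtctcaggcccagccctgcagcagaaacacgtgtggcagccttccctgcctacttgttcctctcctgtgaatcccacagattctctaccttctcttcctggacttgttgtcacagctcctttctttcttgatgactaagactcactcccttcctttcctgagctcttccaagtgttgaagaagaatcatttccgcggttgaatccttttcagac
Casp8: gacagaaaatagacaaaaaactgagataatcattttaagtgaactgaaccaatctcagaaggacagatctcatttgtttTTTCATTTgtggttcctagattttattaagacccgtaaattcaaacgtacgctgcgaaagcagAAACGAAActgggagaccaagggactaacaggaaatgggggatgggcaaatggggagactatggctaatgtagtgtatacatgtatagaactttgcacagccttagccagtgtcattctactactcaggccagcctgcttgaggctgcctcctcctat
The Casp4 window held kappaB matches that start 93 and 92 bases before the start and overlap each other, the second of them on both strands. It also held interferon regulatory factor cores that begin 186 bases before the start and at the 3rd base after it. The Casp8 window held such cores at 171 and 108 bases before the start, and the Casp1 window held none of the 3 motifs. Among 32851 promoter windows of this length, 4.51% held a kappaB match, 23.9% an interferon regulatory factor core and 8.3% a gamma-activated site. Of the other caspases, Casp12 (chr9:5345226-5345525) held 2 cores and 2 gamma-activated sites, and Casp2, Casp6 and Casp9 held none of the 3. The letters are those of the reference strain and not of BALB/c, a match is no evidence of binding, and the lack of one says only that these letters are not in the window.

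Casp1, Casp4 and Casp8 separated the groups by far more than the other caspases. The group means of Casp4 spanned 4.18 log2 units over the 6 groups, those of Casp8 3.39 and those of Casp1 2.91. The span was 1.17 for Casp2, 0.90 for Casp6, 0.63 for Casp12 and 0.19 for Casp9. Over the 4 brain groups alone it was 3.06 for Casp4, 1.55 for Casp1 and 1.42 for Casp8, against 0.25 or less for each of the other 4. Casp6 and Casp12 were below the array median on all 32 arrays, so their values lie in the dim range of the arrays.

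**Figure D1:**
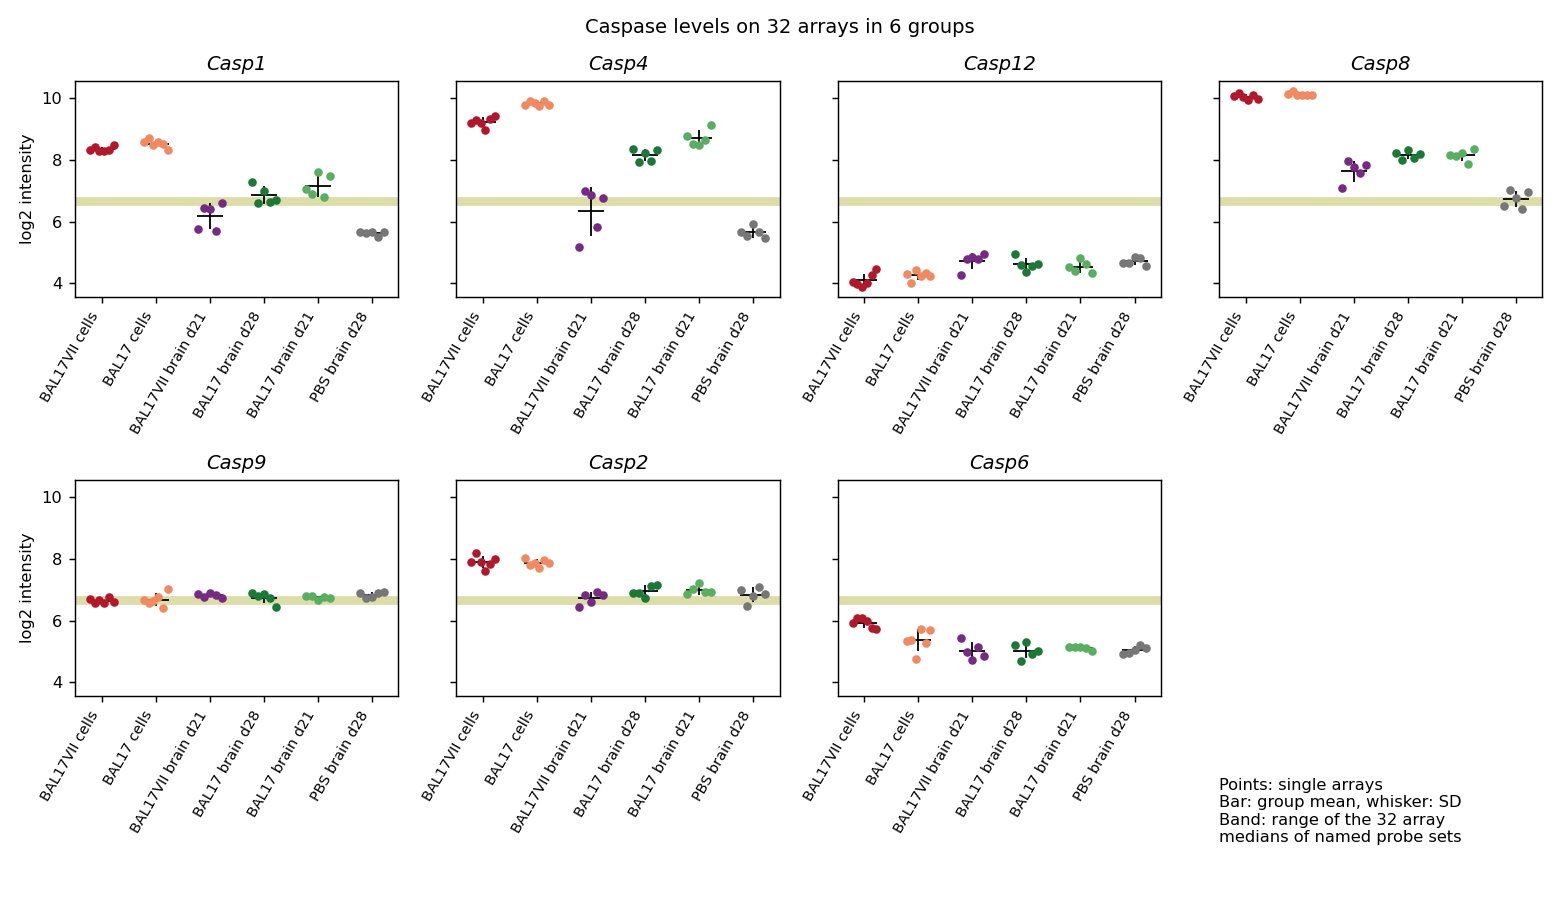
Log2 intensity of each caspase (vertical axis) on every array, 1 panel per gene, by group, with the mean and SD of the group (5 brain arrays or 6 cell arrays) and a band for the range of array medians (6.54 to 6.77). Casp4 lies near 5.65 in PBS brains and near 8.71 in BAL17 brains of day 21, while Casp9 stays between 6.65 and 6.84 in the means of all 6 groups.

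Casp4, the cytosolic lipopolysaccharide sensor, had its highest group means in the cultured lines. Its log2 intensity in BAL17VII cells was 8.98 at the lowest, 9.26 at the median and 9.41 at the highest, against 9.74, 9.81 and 9.92 in BAL17 cells. The 2 lines did not overlap. In brains it was 5.18, 7.0, 6.88, 5.84 and 6.77 in the BAL17VII group of day 21, 8.34, 7.94, 8.22, 7.97 and 8.32 in the BAL17 group of day 28, 8.79, 8.51, 8.48, 8.64 and 9.14 in the BAL17 group of day 21, and 5.65, 5.53, 5.94, 5.65 and 5.46 in the PBS group. Every BAL17 brain was above every PBS brain by more than the spread within either group. The BAL17VII brains were scattered, with replicate 1 below all PBS brains, replicate 4 inside their range and the other 3 above it. In the order of means, BAL17 cells, BAL17VII cells, BAL17 brains of day 21, BAL17 brains of day 28, BAL17VII brains and PBS brains, the neighbours that overlap are BAL17VII cells with BAL17 brains of day 21, and BAL17VII brains with PBS brains.

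Casp1, the protease that matures interleukin 1 beta, followed the same order of groups. Its log2 intensity ran from 8.29 to 8.47 in BAL17VII cells and from 8.31 to 8.71 in BAL17 cells, with overlap. In brains it was 5.76, 6.45, 6.41, 5.69 and 6.62 in the BAL17VII group, 7.29, 6.61, 6.98, 6.64 and 6.71 in the BAL17 group of day 28, 7.05, 6.90, 7.62, 6.79 and 7.49 in the BAL17 group of day 21, and 5.65, 5.63, 5.66, 5.49 and 5.68 in the PBS group. The lowest BAL17VII brain lay just above the highest PBS brain, and all BAL17VII and PBS brains were below the array median. The 2 BAL17 brain groups overlapped, as did BAL17VII brains with BAL17 brains of day 28.

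Casp12, counted with the inflammatory caspases and studied mainly in stress of the endoplasmic reticulum, was dim in every group. Its means were 4.10 ± 0.21 in BAL17VII cells and 4.26 ± 0.14 in BAL17 cells (SD, n = 6 each), and between 4.54 and 4.73 in the 4 brain groups. It passed the test in none of the 7 comparisons below.

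Casp8, the death receptor caspase, was higher in both lines than in any brain. Its log2 intensity ran from 9.93 to 10.18 in BAL17VII cells and from 10.09 to 10.24 in BAL17 cells. In brains it was 7.10, 7.96, 7.76, 7.57 and 7.83 in the BAL17VII group, 8.24, 8.0, 8.32, 8.06 and 8.18 in the BAL17 group of day 28, 8.17, 8.12, 8.23, 7.88 and 8.35 in the BAL17 group of day 21, and 6.52, 7.03, 6.76, 6.42 and 6.96 in the PBS group. All 15 implanted brains were above all PBS brains. BAL17VII brains overlapped with BAL17 brains of day 21, and the 2 BAL17 groups lay on top of each other.

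Casp9, the apoptosome caspase, passed the test in none of the 7 comparisons. Its group means were 6.65 in BAL17VII cells, 6.68 in BAL17 cells, 6.82 in BAL17VII brains, 6.74 and 6.76 in BAL17 brains of day 28 and day 21, and 6.84 in PBS brains. Casp2 averaged 7.91 ± 0.19 in BAL17VII cells and 7.87 ± 0.12 in BAL17 cells (SD, n = 6 each), above all brains, whose group means lay between 6.74 and 6.99. Casp6, which cleaves nuclear lamins, averaged 5.93 ± 0.16 in BAL17VII cells and 5.36 ± 0.36 in BAL17 cells (SD, n = 6 each), and between 5.02 and 5.11 in the brain groups. All neighbouring brain groups overlapped for Casp2, Casp6 and Casp9.

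The comparison of the 2 cultured lines shows how they differ outside the brain. Casp4 was 1.51-fold lower in BAL17VII cells (log2 difference -0.59 ± 0.08, SE, 95% interval -0.75 to -0.43, limma adjusted p = 5.46e-05), and Casp6 was 1.48-fold higher (0.57 ± 0.14, interval 0.27 to 0.87, adjusted p = 0.0115). Both were called at an adjusted p under 0.05, so 1 of 7 caspases rose and 1 fell, where 15.4% of all genes were called, 8.48% higher and 6.93% lower. Among genes past a filter at the array median, which drops Casp6 and Casp12, 34.3% were called. The lines did not overlap for these 2 caspases, as for 10.7% of all genes. Casp6 is dim in both lines: the highest BAL17 culture and the lowest BAL17VII culture are both 5.73 at 2 decimals. Casp1 was -0.17 ± 0.07 (adjusted p = 0.132) and Casp8 -0.07 ± 0.06 (interval -0.21 to 0.06, adjusted p = 0.509), and neither passed. Casp2, Casp9 and Casp12 had adjusted p values of 0.849, 0.89 and 0.36. The median difference of the 7 caspases was -0.07.

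The 3 comparisons of implanted brains with PBS brains ask which transcripts come with a lymphoma in the brain. They share the same 5 PBS arrays and are therefore given side by side. Markers moved with them: B lineage markers rose for 8 of 14 in BAL17VII brains, 11 of 14 in BAL17 brains of day 28 and 12 of 14 in BAL17 brains of day 21. Markers of dividing cells rose for 10, 11 and 11 of 11 in the same groups. Monocyte and macrophage markers rose for 3, 7 and 6 of 14, but the cultured lines carry some of these: Plac8 averaged 10.30 and Cybb 10.59 in BAL17VII cells, against 7.44 and 7.65 in BAL17 cells, and both are among the 3 that rose in BAL17VII brains, beside Lyz2, which averaged 5.23 in BAL17VII cells and 5.43 in BAL17 cells. Microglia markers fell for 0, 2 and 9 of 11, neuron markers for 0, 6 and 8 of 10, astrocyte markers for 0, 4 and 7 of 8 and oligodendrocyte markers for 0, 7 and 6 of 7. Genes of the interferon gamma response rose for 2, 6 and 7 of 9 and those of the type I interferon response for 2, 1 and 6 of 13. Without BAL17VII replicate 1, the BAL17VII counts were 10 of 14 B lineage, 11 of 11 dividing-cell, 5 of 14 macrophage, 6 of 9 interferon gamma and 5 of 13 type I interferon genes higher, with 0 lower in the microglia, neuron, astrocyte and oligodendrocyte lists. Calls over all genes also moved when an array was left out, so these gains are not read as particular to the lists. The part of these markers in the caspase differences from PBS brains was not tested. In bulk tissue, fewer cells of a type and less RNA per cell cannot be told apart.

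In BAL17 brains of day 21, Casp4 was 8.37-fold higher than in PBS brains (log2 difference 3.06 ± 0.24, interval 2.57 to 3.56, adjusted p = 1.92e-08), which is rank 14 of 19938 genes by size. Casp1 was 2.93-fold higher (1.55 ± 0.18, adjusted p = 1.07e-06) and Casp8 2.66-fold higher (1.41 ± 0.14, adjusted p = 1.31e-07). These 3 of 7 rose and none fell, where 29.8% of all genes were called, 11% higher and 18.8% lower (48.5% of those past the filter). The groups did not overlap for the 3, as for 18.4% of all genes. Casp2 (0.15 ± 0.12, adjusted p = 0.364), Casp6 (0.06 ± 0.12, 0.711), Casp9 (-0.09 ± 0.08, 0.433) and Casp12 (-0.17 ± 0.12, 0.327) did not pass.

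In BAL17 brains of day 28, the day of the PBS brains, 3 of 7 caspases rose and 0 fell. Casp4 was 5.7-fold higher than in PBS brains (2.51 ± 0.24, interval 2.02 to 3.01, adjusted p = 4.32e-07), rank 32 of 19938 genes by size. Casp8 was 2.68-fold higher (1.42 ± 0.14, adjusted p = 4.56e-07) and Casp1 2.34-fold higher (1.23 ± 0.18, adjusted p = 4.02e-05). Here 18% of all genes were called, 6.56% higher and 11.5% lower (33.2% past the filter), and 15.3% did not overlap, as the 3 caspases did not. The other 4 caspases had differences between -0.11 and 0.12 and adjusted p values of 0.386 to 0.921.

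In BAL17VII brains, 1 of 7 caspases passed, where 2.7% of all genes did, 2.05% higher and 0.647% lower (5.51% past the filter). Groups did not overlap for Casp8 and Casp1, 2 of 7, as for 2.63% of all genes. Casp8 was 1.87-fold higher than in PBS brains (0.91 ± 0.14, interval 0.62 to 1.19, adjusted p = 0.000616). Casp4 was 0.69 ± 0.24 (interval 0.20 to 1.18, adjusted p = 0.131) and Casp1 0.56 ± 0.18 (interval 0.20 to 0.93, adjusted p = 0.0938). The SD in BAL17VII and PBS brains was 0.79 and 0.18 for Casp4, and 0.43 and 0.08 for Casp1. The fit shares 1 spread over all brain groups, so these intervals do not carry the wider spread of BAL17VII brains. Without replicate 1, the brain whose B lineage markers lay in the PBS range, Casp4 was 0.98 (adjusted p = 0.00117) and Casp1 0.67 (adjusted p = 0.0341), so that 3 caspases passed, with Casp8 at 1.04 (adjusted p = 2.58e-06). Without replicate 4, Casp1 was 0.69 (adjusted p = 0.0224) and Casp4 0.81 (adjusted p = 0.0537). The number of all genes called also moved when an array was left out, as given in the last section. The 2.7% above is therefore not the share that belongs to these fits, and the gained calls are not read as particular to the caspases.

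**Figure D2:**
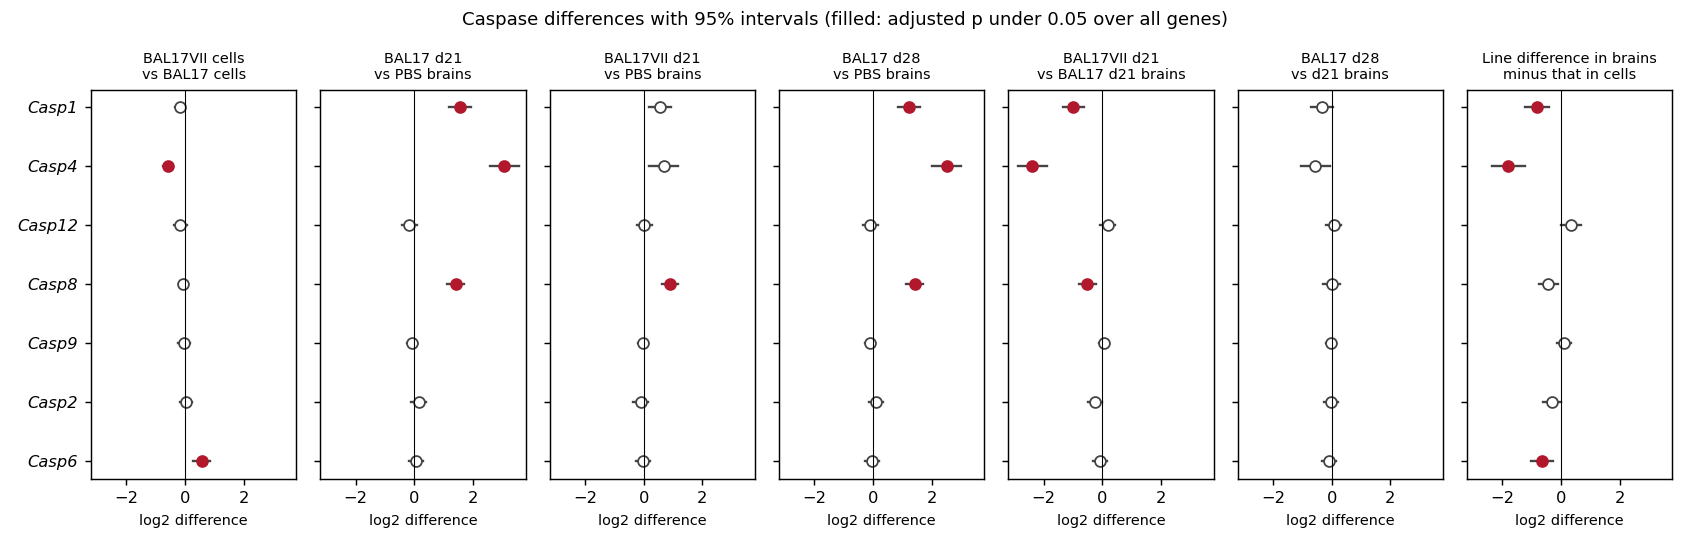
Log2 difference (horizontal axis) of each caspase in the 7 comparisons, with 95% intervals, where filled points passed the limma test at an adjusted p under 0.05. Casp4 reaches 3.06 for BAL17 brains of day 21 over PBS brains and -2.38 for BAL17VII over BAL17 brains of day 21, while Casp9 has no filled point.

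The comparison of the 2 implanted lines at day 21 asks whether the brains differ by the line implanted. Casp4 was 5.19-fold lower in BAL17VII brains than in BAL17 brains (-2.38 ± 0.24, interval -2.87 to -1.88, adjusted p = 2.4e-06), rank 6 of 19938 genes by size, with no overlap of the groups. Casp1 was 1.98-fold lower (-0.98 ± 0.18, adjusted p = 0.00102), also with no overlap, and Casp8 1.42-fold lower (-0.51 ± 0.14, adjusted p = 0.017), with overlap. These 3 of 7 fell, where 13.5% of all genes were called, 8.94% higher and 4.55% lower (27% past the filter), and 7.16% did not overlap. Casp2 was -0.25 ± 0.12 (adjusted p = 0.16), and Casp6, Casp9 and Casp12 had adjusted p values of 0.667, 0.676 and 0.314. The median of the 7 was -0.25, against a median near 0 over all genes.

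B lineage markers also differed between these groups: 0 of 14 rose and 4 fell in BAL17VII brains, and 1 rose and 3 fell without BAL17VII replicate 1. Of the 14, 11 were above the array median on every array of either line. Ms4a1 was not: it averaged 5.30 in BAL17VII cells and 5.31 in BAL17 cells, but 7.26 in BAL17 brains of day 21. Ebf1 averaged 8.16 in PBS brains and 7.97 in BAL17 brains of day 21. The list is therefore not a pure gauge of lymphoma cells. In culture the mean of the 14 was 8.43 to 8.66 in BAL17VII cells and 8.42 to 8.52 in BAL17 cells. Single genes differed all the same: 4 of the 14 were higher and 3 lower in BAL17VII cells. In brains it was 5.92 to 7.24 in BAL17VII brains and 6.98 to 7.46 in BAL17 brains of day 21, with 7.29 to 7.62 in BAL17 brains of day 28 and 5.84 to 6.07 in PBS brains. With that mean as a covariate, Casp4 was lower in BAL17VII brains (-1.75 ± 0.18, adjusted p = 4.87e-05). Casp1 (-0.61, adjusted p = 0.0667) and Casp8 (-0.20, adjusted p = 0.476) did not pass in that fit. The covariate is a bulk mean that itself differs between the groups. Such a fit therefore cannot tell the number of lymphoma cells from RNA per cell, for any of the 3 caspases. With the covariate and without BAL17VII replicate 1, Casp4 was -1.80 ± 0.20 (adjusted p = 3.08e-05), Casp1 -0.49 (adjusted p = 0.113) and Casp8 -0.22 (adjusted p = 0.43). Without that array and with no covariate, Casp4 was -2.09 (adjusted p = 3.64e-07), Casp1 -0.88 (adjusted p = 0.00389) and Casp8 -0.37 (adjusted p = 0.0619). Casp8 was also no longer called without BAL17 day 21 replicate 5 (-0.46, adjusted p = 0.0536).

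Markers of other cells differed between the same groups: 2 of 14 monocyte and macrophage markers fell in BAL17VII brains against BAL17 brains, 8 of 11 microglia markers rose and 5 of 7 pituitary hormone genes rose. Further, 6 of 8 astrocyte, 6 of 7 oligodendrocyte and 5 of 10 neuron markers rose, and 6 of 11 markers of dividing cells fell. Without BAL17VII replicate 1, 2 of 14 macrophage markers fell and 1 rose, 7 of 11 microglia, 5 of 7 pituitary, 5 of 8 astrocyte, 4 of 7 oligodendrocyte and 4 of 10 neuron markers rose, and 5 of 11 markers of dividing cells fell. The mean of 14 monocyte and macrophage markers was 5.22 to 6.13 in BAL17VII brains, 5.69 to 5.97 in BAL17 brains of day 21 and 5.10 to 5.26 in PBS brains, with 1, 2 and 1 of the 14 above the array median on every array. The mean of 11 microglia markers was 7.11 to 7.53 in BAL17VII brains and 6.63 to 7.03 in BAL17 brains of day 21. In PBS brains that mean was 7.17 to 7.49. The mean of 7 pituitary hormone genes was 5.58 to 9.14 in BAL17VII brains, 5.43 to 5.63 in BAL17 brains of day 21 and 5.61 to 6.54 in PBS brains. The part of these other markers in the caspase differences was not tested.

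**Figure D3:**
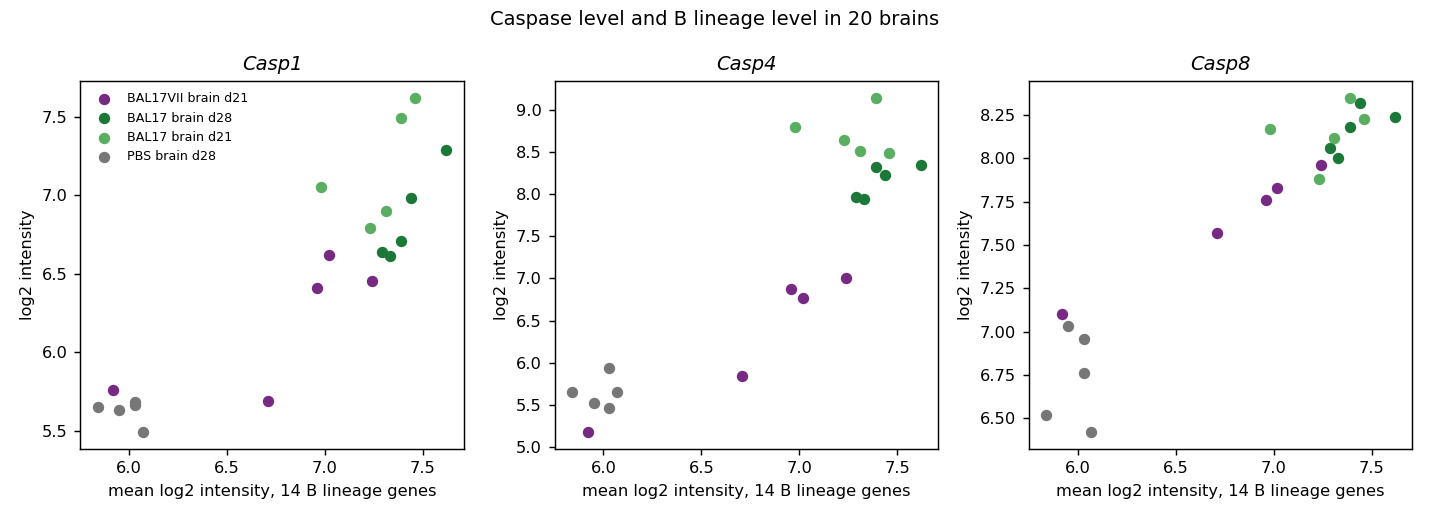
Log2 intensity of Casp1, Casp4 and Casp8 (vertical axes) against the mean log2 intensity of 14 B lineage genes (horizontal axes) in the 20 brains, 1 point per array, coloured by group. BAL17VII brains with B lineage means of 6.71 to 7.24 have Casp4 values of 5.84 to 7.0, below the 8.48 to 9.14 of BAL17 brains of day 21, whose B lineage means are 6.98 to 7.46.

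The step between the lines was larger in brains than in culture for Casp4. The difference of differences, BAL17VII minus BAL17 in brains of day 21 less the same in cells, was -1.79 ± 0.27 for Casp4 (interval -2.34 to -1.23, adjusted p = 1.5e-05). It was -0.81 ± 0.21 for Casp1 (adjusted p = 0.00587) and -0.65 ± 0.19 for Casp6 (adjusted p = 0.0132). For Casp6 the difference between the lines was 0.57 in cells and -0.09 in brains. Thus 3 of 7 caspases passed, all negative, where 15.6% of all genes did, 8.43% positive and 7.13% negative (26.5% past the filter). Without BAL17VII brain replicate 1, the values were -1.50 for Casp4 (adjusted p = 2.53e-06), -0.70 for Casp1 (adjusted p = 0.0182) and -0.76 for Casp6 (adjusted p = 0.00369), and Casp12 passed at 0.47 (adjusted p = 0.0343). Casp8 was -0.44 ± 0.16 (adjusted p = 0.0618). Here 11 of 13 type I interferon and 6 of 9 interferon gamma genes were negative, with 0 positive. Of B lineage markers 4 of 14 were negative and 1 positive, and of microglia markers 0 of 11 negative and 4 positive. Without BAL17VII brain replicate 1, counts in this order were 10, 6, 4 and 0 negative, and 0, 0, 0 and 4 positive. Brains mix cell types and cultures do not, so lymphoma content and RNA per cell cannot be told apart.

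Between day 28 and day 21 after BAL17 cells, 0 of 7 caspases passed the limma test, where 0.612% of all genes did (0.391% higher, 0.221% lower, 1.76% past the filter). Casp4 had a log2 difference of -0.55 ± 0.24, day 28 minus day 21 (interval -1.05 to -0.06, adjusted p = 0.414). Its groups did not overlap, which held for 1 of 7 caspases and for 3.69% of all genes. Casp1 was -0.32 ± 0.18 (adjusted p = 0.594) and Casp8 0.01 ± 0.14 (interval -0.28 to 0.30, adjusted p = 0.99). Fitted on the 10 arrays of the 2 groups alone, Casp4 passed with the same difference (adjusted p = 0.0382), and with the B lineage mean as a covariate it was -0.73 ± 0.15 (adjusted p = 0.0244). The SD of Casp4 was 0.19 at day 28 and 0.27 at day 21, below the 0.79 of BAL17VII brains, which enters the shared spread of the full fit.

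Genes that act with these caspases were followed in lists by role. Of 15 inflammasome sensors, adaptors and products, 6 rose and 0 fell in BAL17VII cells against BAL17 cells, with a median of 0.36. Of all genes, 15.4% were called there, 8.48% higher and 6.93% lower. Il1b, the cytokine that Casp1 matures, averaged 8.16 in BAL17VII cells and 6.10 in BAL17 cells (2.05 ± 0.10, adjusted p = 2.06e-09). P2rx7, the ATP receptor upstream of the Nlrp3 inflammasome, averaged 7.82 in BAL17VII cells and 6.35 in BAL17 cells (1.47 ± 0.08, adjusted p = 8.1e-09). The others that rose were Txnip (1.38 ± 0.07), named by the same rule, and, named after their values were seen, the sensor Nlrp3, Aim2 and the adaptor Pycard (0.84, 0.56 and 0.36). Casp4 was lower in that line, and Casp1 did not pass.

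In brains the counts of this list lay near the share of all genes called. Against PBS brains that share was 29.8% in BAL17 brains of day 21, 18% in those of day 28 and 2.7% in BAL17VII brains. Between the lines at day 21 it was 13.5%. In BAL17 brains of day 21 against PBS brains, 3 of 15 rose and 1 fell, and the median was 0.12. Aim2, the sensor of cytosolic DNA, averaged 8.24 in BAL17 brains of day 21 and 6.67 in PBS brains (1.57 ± 0.22, adjusted p = 1.35e-05), and Gsdmd, the pore-forming substrate of Casp1 and Casp4, was 0.43 ± 0.13 (adjusted p = 0.018). Txnip, which binds Nlrp3, also rose (0.82 ± 0.16), and Il18, a cytokine that Casp1 matures, fell (-0.40 ± 0.13, adjusted p = 0.0266; named after its value was seen). In BAL17 brains of day 28, 3 of 15 rose and 0 fell, with Aim2 at 1.35 ± 0.22 (adjusted p = 0.000173) and Gsdmd at 0.44 ± 0.13 (adjusted p = 0.0246). In BAL17VII brains 1 of 15 rose against PBS brains, Txnip (0.75 ± 0.16, adjusted p = 0.00782). Without BAL17VII replicate 1, Txnip was 0.79 (adjusted p = 0.00461) and Aim2 also rose (0.92 ± 0.16, adjusted p = 5e-04). Between the lines at day 21, Aim2 was lower in BAL17VII brains (7.32 against 8.24 in BAL17 brains, adjusted p = 0.00745) and Il18 higher (8.38 against 7.74 in BAL17 brains, adjusted p = 0.0036), 1 in each direction of 15. Without that array, Aim2 was -0.65 (adjusted p = 0.0134) and Il18 0.54 (adjusted p = 0.0143).

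Counts of Casp8 partners were near or below the share of all genes called. That share was 29.8% for BAL17 brains of day 21 and 18% for those of day 28 over PBS brains. It was 13.5% between the lines at day 21 and 15.4% in cells. Of 12 death receptor pathway genes, 1 rose and 1 fell in BAL17 brains of day 21 against PBS brains, namely Bid, which Casp8 cleaves to reach the mitochondria (0.65 ± 0.11, adjusted p = 0.000121), and Cflar, the decoy that restrains Casp8 (-0.34 ± 0.11, adjusted p = 0.0214). In BAL17 brains of day 28 Bid rose (0.34 ± 0.11) and Cyld, a deubiquitinase that acts at death receptors, fell (-0.35 ± 0.09), and in BAL17VII brains against PBS brains 0 of 12 passed. Between the lines at day 21, Bid was lower in BAL17VII brains (-0.38 ± 0.11, adjusted p = 0.0245) and Cflar higher (0.35 ± 0.11, adjusted p = 0.0326). Neither passed without BAL17VII replicate 1 (Bid -0.37, adjusted p = 0.0608; Cflar 0.29, adjusted p = 0.109). Against PBS brains 0 of 12 passed without it. In cells, Fadd was the only one of the 12 to pass (0.27 ± 0.06, adjusted p = 0.0104). Of the 3 necroptosis genes 1 rose in BAL17 brains of day 21 against PBS brains, Zbp1 (0.48 ± 0.13), a nucleic acid sensor.

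Of the 9 genes of the apoptosome and its inhibitors, 4 rose and 1 fell in BAL17 brains of day 21 against PBS brains, with a median of 0.19. Over all genes, 11% rose and 18.8% fell in that comparison. Birc3, an inhibitor of apoptosis that also acts in kappaB signalling, was 1.54 ± 0.17 (adjusted p = 5.16e-07) and Birc5, which is abundant in dividing cells, 1.93 ± 0.20. Xiap, an inhibitor of Casp9, was the gene that fell (-0.33 ± 0.11, adjusted p = 0.0227; named after its value was seen). Birc5 is itself 1 of the 11 markers of dividing cells. The mean of those markers, Birc5 included, was 7.89 to 8.42 in BAL17 brains of day 21 and 5.43 to 5.62 in PBS brains. The part of dividing cells in the rise of Birc5 was not tested. In BAL17 brains of day 28, 4 rose and 1 fell, with Birc3 at 1.02 ± 0.17. In BAL17VII brains 3 rose and 0 fell, with Birc3 at 0.75 ± 0.17 (adjusted p = 0.013), and 3 of 9 rose without BAL17VII replicate 1, with Birc3 at 0.89 (adjusted p = 0.000852). Between the lines at day 21, 0 of 9 rose and 2 fell, Birc3 (-0.79 ± 0.17, adjusted p = 0.00335) and Htra2, a mitochondrial protease that binds inhibitors of apoptosis (-0.31 ± 0.10, adjusted p = 0.0345). Without that array these were -0.66 for Birc3 (adjusted p = 0.0125) and -0.36 for Htra2 (adjusted p = 0.0249). In cells, in contrast, Birc3 was higher in BAL17VII (1.01 ± 0.08, adjusted p = 2.01e-07), and its difference of differences was -1.79 ± 0.20 (adjusted p = 2.73e-08), or -1.66 without BAL17VII brain replicate 1 (adjusted p = 4.21e-08).

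Of the 2 PIDDosome genes, 1 rose in BAL17 brains of day 21 against PBS brains. Pidd1, the scaffold that activates Casp2, was 0.30 ± 0.09 in BAL17 brains of day 21 over PBS brains and -0.26 in BAL17VII over BAL17 brains (adjusted p = 0.0439, or 0.134 without BAL17VII replicate 1), and Casp2 passed in neither. Of the 7 caspase substrates, 4 rose in BAL17 brains of day 21 and 2 in those of day 28 against PBS brains, among them Lmnb1, a nuclear lamin (0.94 ± 0.16 and 0.95), while 0 of 7 passed in BAL17VII brains. Without BAL17VII replicate 1, Lmnb1 rose there too (0.78 ± 0.10, adjusted p = 1.55e-05). Between the lines at day 21, 1 of 7 substrates fell, Parp1 (-0.30 ± 0.09, adjusted p = 0.026), and 0 of 7 without that array. In cells Lmnb1 and Parp1 fell in BAL17VII (-0.29 ± 0.08 and -0.36 ± 0.08). The share of genes called over the whole table, given above for each comparison, is the measure against which these counts stand, and none of the lists was tested as a set. That share does not belong to the counts without BAL17VII replicate 1, whose fits have shares of their own.

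**Figure D4:**
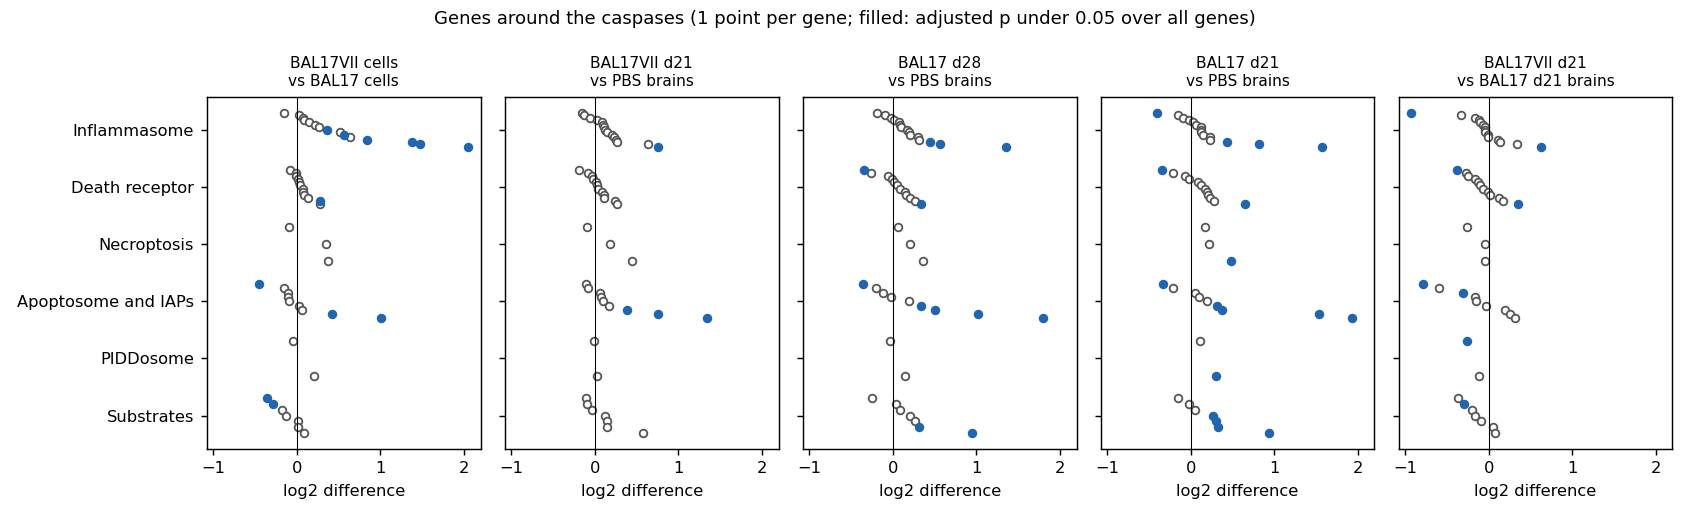
Log2 difference (horizontal axis) of each gene in 6 lists of caspase partners (rows) in 5 comparisons (panels), where filled points passed the limma test at an adjusted p under 0.05. In cells 6 of 15 inflammasome genes are filled and all lie to the right, and in BAL17VII over PBS brains 1 of 15 is.

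Interferon response genes were read beside the caspases. The mean of 13 type I interferon response genes was 7.06 to 7.36 in BAL17VII cells and 5.73 to 5.99 in BAL17 cells, and 13 of 13 rose. The mean of 9 interferon gamma response genes was 7.64 to 7.88 in BAL17VII cells and 7.10 to 7.19 in BAL17 cells, and 7 of 9 rose. In brains the type I mean was 5.87 to 6.65 in the BAL17VII group, 5.84 to 6.22 in BAL17 brains of day 28, 5.99 to 6.58 in BAL17 brains of day 21 and 5.77 to 5.93 in PBS brains. The interferon gamma mean was 5.93 to 7.26 in BAL17VII brains, 6.36 to 7.08 in BAL17 brains of day 28, 6.46 to 7.22 in BAL17 brains of day 21 and 5.87 to 6.0 in PBS brains. Between BAL17VII and BAL17 brains of day 21, 0 of 13 type I genes passed, and 0 of 9 interferon gamma genes rose and 1 fell, with the same counts without BAL17VII replicate 1. The part of interferon in the caspase levels was not tested.

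Genes most like each caspase over the 20 brains were named by Pearson's r, as a description only, since the brains share groups and normalization. Casp4 was most like Ybx3 (0.971), Nol9 (0.965), Cytip (0.964), Wdr43 (0.959) and Map3k15 (0.957). Casp8 was most like Rps4x (0.977), Rpl36a (0.974), Nckap1l (0.973), Smc4 (0.973) and Bcl2 (0.972), and Casp1 most like Kif18a (0.955), Nasp (0.951) and Suz12 (0.949). For Casp2, Casp6, Casp9 and Casp12 the nearest genes reached 0.842, 0.722, 0.705 and 0.715. Among the caspases, r was 0.937 for Casp1 with Casp4, 0.908 for Casp1 with Casp8 and 0.887 for Casp4 with Casp8, and the other pairs lay between -0.42 and 0.44. Over the 12 cell arrays, Casp4 was most like Dgke (0.984), Wdr70 (0.981), Srbd1 (0.978), Pclaf (0.978) and Memo1 (0.978), and Casp8 most like Swt1 (0.890), Car15 (0.888) and Gm13547 (0.887).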

How the data were processed

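RNA was measured on 12 arrays of cultured cells and 20 of whole brain. Per the submitters' processing notes, the deposited intensity values were made with RMA in Affymetrix Expression Console; versions are not given in the sources used here, nor is it stated whether cells and brains were normalized together. The intensities run from 2.72 to 17825, a linear scale, so log2 was taken first. Of 35556 probe sets, 21789 carry 1 symbol, 1621 several and 12146 none in the platform annotation; 21698 of the single-symbol ones matched a RefSeq gene table (GRCm38.p6), which gave 19938 genes with 1 probe set each.

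Group-means models were fitted with limma 3.58.1 (R 4.3.3; lmFit and eBayes) on all genes without an intensity filter: 12 cell arrays, 20 brain arrays, and all 32 for the difference of differences. Benjamini-Hochberg adjustment ran over all 19938 genes and a call is an adjusted p under 0.05. Of the 7 caspases, 5 (Casp1, Casp2, Casp4, Casp8, Casp9) passed a filter at the array median in each fit, and Casp6 and Casp12 did not. In the fit of the brains Casp1 passed that filter through BAL17 brains alone. For named partner genes, the 3 smallest adjusted p per list and comparison were eligible; likeness used the highest Pearson's r, 5 genes for Casp4 and Casp8 and 3 for the others. The number of arrays limits the precision. Fits were tested on simulated data with independent noise and the same spread in every group. Such data cannot show how the fits behave with unequal spreads or with genes that move together. Members and lists were chosen with earlier results of these data known. Alternatives covered normalization, filters, probe-set choice, moderation, array weights, a replicate block, the B lineage mean as covariate, and each array left out.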

Additional observations from a re-analysis of the deposited data

Results flagged for a closer look

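Of the caspase values, 3 lay apart from the rest of their group, by Dixon's test, among 42 groups looked at, where chance gives about 1 in 20. Casp1 was 5.49 in PBS brain replicate 4, and 5.63 to 5.68 in the other PBS brains. Casp8 was 10.24 in BAL17 cell replicate 2, and 10.09 to 10.13 in the other BAL17 cultures. Casp12 was 4.26 in BAL17VII brain replicate 1, and 4.79 to 4.95 in the other BAL17VII brains. The line difference, BAL17VII minus BAL17, was not the same in brains of day 21 and in cells for Casp4 (difference of differences -1.79), Casp1 (-0.81) and Casp6 (-0.65), by a test of the difference itself.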

How the results depend on the processing

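Of 989 recomputed values of single caspases, 966 kept their side of the threshold, 17 gained a call and 6 lost one. The sign turned in 22, all of them uncalled both ways and with differences of at most 0.08, and in 0 called values. Of 7 caspases, 2 were called in cells, but 1 with the filter at the array median, which leaves Casp6 out. In BAL17VII over PBS brains 1 was called, but 3 with array weights, 2 with the replicate block, and 1 to 3 with an array left out. These counts are not set against the share of all genes called in the same fit. In BAL17VII over BAL17 brains 3 were called, but 1 with the B lineage covariate; between day 28 and day 21, 0 were called, but 1 with that covariate and 1 with the arrays of the 2 groups alone.

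Over all genes, the filter at percentile 75 gave 2912 calls for BAL17 brains of day 21 over PBS brains (5939 without it), 343 for BAL17VII (538) and 2082 for BAL17 of day 28 (3597), with fewer genes tested. The arrays of the 2 groups alone gave 197 calls for BAL17VII over PBS brains, and 1460 for BAL17VII over BAL17 brains (2691 in the full fit). The covariate gave 380 there, and 733, with 1 caspase called, when BAL17VII replicate 1 was left out as well, an alternative chosen after seeing the data, as were the partner and marker counts without that array. Leaving out an array gave 229 to 1117 calls for BAL17VII over PBS brains and 1483 to 3767 for BAL17VII over BAL17 brains. Day 28 over day 21 gave 122 calls, but 231 after quantile normalization, 186 with the array-median filter, 468 with array weights, 312 with the 2 groups alone and 6 to 174 with an array left out. The cause of these changes was not tested beyond the fewer genes or arrays. The replicate block gave 658 calls for BAL17VII over PBS brains, 2898 in cells and 3325 for the difference of differences, and kept 13 of 14 counts within 1.5 times. With it, 47 of 49 single caspase values kept their call and 2 gained one. Same-numbered replicates did not deviate together throughout (r of their residuals -0.319 to 0.483), so the numbers were not taken as pairs. Signal limits Casp6 and Casp12, which were below the array median on all 32 arrays. It also limits Casp1 in brains, which was above that median on 7 of 20 brain arrays, and on 0 of 5 in BAL17VII and in PBS brains.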
